A study of Mus musculus with 3 samples.

Results

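The genes described here encode collagen chains, and they were followed in sorted mouse yolk sac cells with and without a transgene for the ETS transcription factor Etv2. A probe counted as a collagen probe if it was not a control spot and its whole gene name had the form Col, digits, a, digits, which took 63 of 55668 probes and 41 of 36088 gene names. The ceramide transporter gene Col4a3bp has more letters after that form and stayed out. Of the 41 genes, 26 had 1 probe and 15 had several, with at most 4. Chains were split by role into fibrillar (11 genes), basement membrane (9), fibril-associated (9), type VI (4), transmembrane (4), short-chain (3) and 1 other.

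Cells positive for the endothelial adhesion protein VE-cadherin and the blood cell surface protein CD45 had been isolated from yolk sac by flow cytometry and used without further treatment. In the Tie-2-Etv2 group, with 2 samples, an Etv2 transgene was switched on by a Cre transgene under Tie-2, so that it can act in cells with Tie-2 activity now or earlier in their lineage. A stage of E10.5 is given for the Control group, with 1 sample, while no stage is given for the Tie-2-Etv2 samples. All samples came from mixed-strain mice (B6/CBA and others), and which transgenes, if any, the control embryos carried is not stated. The labels leave out whether embryos were pooled and whether the replicates stem from different litters. The p-values thus rest on sample-to-sample spread that may be purely technical.

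Cy3-labelled RNA of each sample was read on its own 1-colour Agilent array, and the 3 arrays shared 1 slide and 1 scan. Between 24214 and 27014 probes per array carried the scanner software's flag for a signal well above background, and the 75th percentile of the probes flagged on every array was 1199 and 2092 intensity units for Tie-2-Etv2 replicates 1 and 2 and 2073 units for the control. Intensities below are scaled so that this percentile equals the control's. The lowest scaled intensity flagged as well above background was 18.2 on Tie-2-Etv2 replicate 1, 11.1 on replicate 2 and 13.8 on the control. Etv2 itself read 1559 and 675 in the Tie-2-Etv2 samples, against 72.6 in the control; whether its probe sees the transgene was not tested. Cdh5, the VE-cadherin gene, read 2712 and 744 against 123, and Ptprc, the CD45 gene, read 728 and 691 against 978, so both sort markers were measured on every array. In bulk samples such as these, fewer cells of a type and less RNA per cell cannot be told apart.

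Collagens are secreted or membrane proteins whose chains wind into a triple helix. Types I, III and V build the striped fibrils of connective tissue and are made mainly by mesenchymal cells, whereas type IV forms the network of basement membranes and type XVIII, the source of the fragment endostatin, is a proteoglycan of the basement membranes of epithelium and endothelium. Chains are hydroxylated, folded by chaperones in the endoplasmic reticulum, trimmed after secretion and then cross-linked.

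The fibrillar chains Col1a1, Col1a2, Col3a1, Col5a1 and Col2a1 were lower in the Tie-2-Etv2 cells, the type IV chains Col4a1 and Col4a2 were less than 2-fold from the control, and Col18a1 was higher. Of the 41 genes, 21 had a probe well above background on at least 1 array and 18 were tested, because a probe had to be well above background on the control or on both Tie-2-Etv2 arrays. Among these 18, 8 were at least 2-fold lower on both Tie-2-Etv2 arrays, against 6.64% of the 19580 genes tested, and 1 was at least 2-fold higher on both, against 3.92%. With dim values set at the lowest detected level of each array, 6 of the 18 were 2-fold lower, without Col2a1 and Col14a1. Of all 19580 genes, 1009 were. No collagen gene passed limma's test with Benjamini-Hochberg adjustment at 0.05, and 0% of all tested genes did. The adjusted p-values of the 18 genes ran between 0.200 and 0.988, and 0.200 was the smallest of any gene. At an unadjusted limma p under 0.05, 8 collagen genes were lower, against 6.36% of all genes, and 0 were higher, against 4.41%. An exact permutation test of 2 arrays against 1 cannot give a p below 0.333. The median difference, Tie-2-Etv2 minus control on the log2 scale, was -0.83 over the 18 collagen genes and 0.07 over all genes tested. With genes measured in 1 group only set at their bounds, the collagen median was -0.73. The filter lets a gene in through the group in which it is bright, so these counts describe the genes that passed it and not all 41. Among genes well above background on all 3 arrays, 3 of 10 collagen genes were 2-fold lower on both Tie-2-Etv2 arrays, against 3.44% of all such genes, and 1 of 10 was 2-fold higher, against 2.91%. With normexp background correction 4 collagen genes passed limma's test (Col1a1, Col1a2 and Col3a1 lower, Col18a1 higher), against 609 of all 19580 genes. In that fit all probes were given the same variance, so a gene's own replicate spread did not enter its p-value. There, 3 were 2-fold lower on both arrays, against 488 of all genes. With no filter on dim probes 4 passed, all of them lower, against 440 of 36088 genes.

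**Figure D1:**
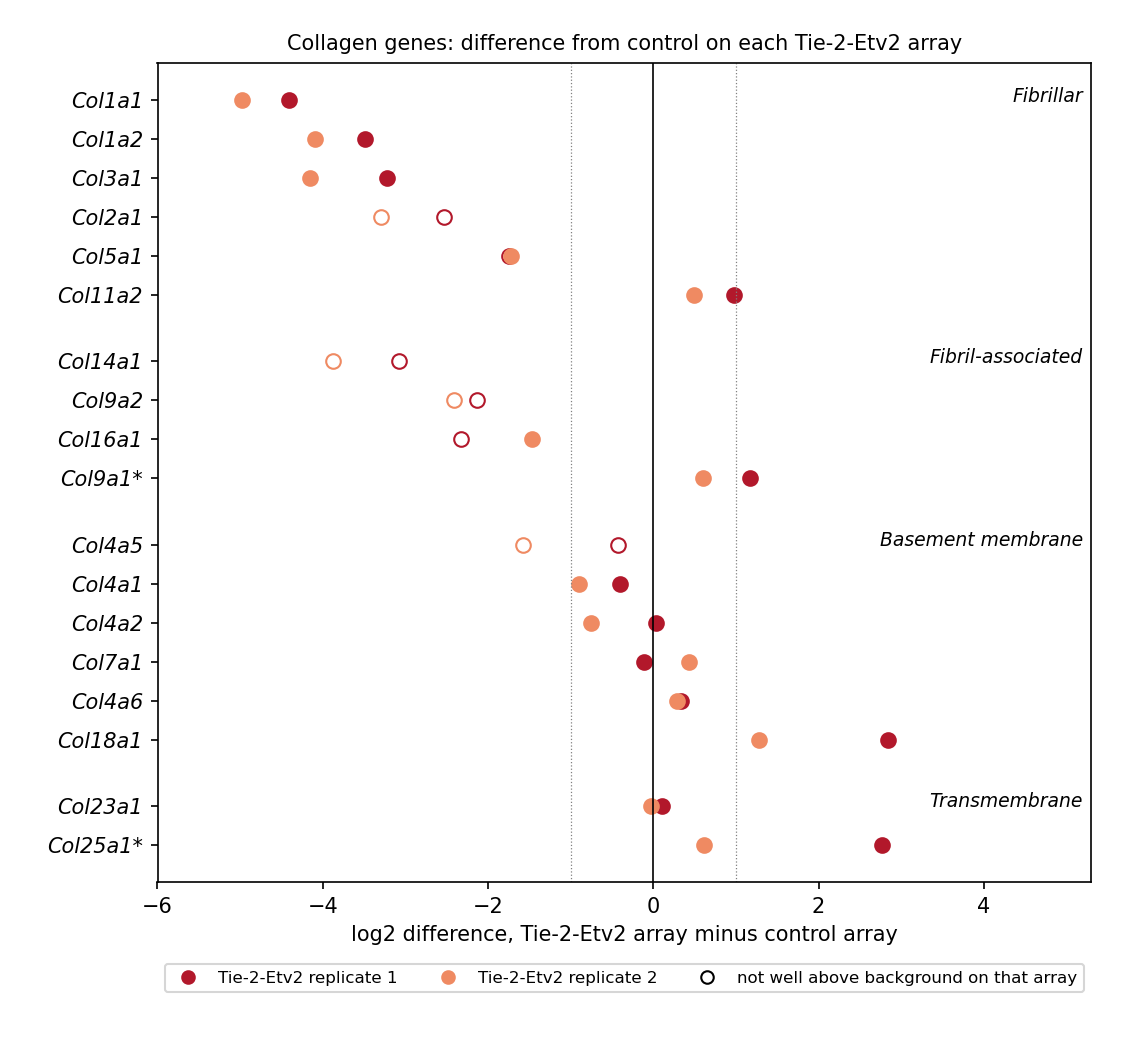
Log2 difference of each Tie-2-Etv2 array from the control array (horizontal axis) for the 18 tested collagen genes, grouped by class down the page, with 1 point per Tie-2-Etv2 replicate. Open points were not well above background on that array, an asterisk marks genes not well above background on the control, and dotted lines mark 2-fold; 5 of 6 fibrillar genes lie beyond the lower line on both arrays and Col18a1 beyond the upper one.

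The fibrillar class held the genes furthest below the control. Of its 11 genes, 6 were tested and 5 were 2-fold lower on both Tie-2-Etv2 arrays, against 6.64% of all genes tested. Col2a1 is 1 of the 5 only by dim values, and its bound was 1.36-fold on replicate 1 and 2.23-fold on replicate 2. The median difference of the 6 was -3.30, at -2.88 on replicate 1 and -3.69 on replicate 2, and -2.71 with bounds. Correcting background by normexp gave -1.03, and testing all probes without a filter gave -1.81. Type I collagen is the main fibril former. Col1a1, the alpha 1 chain, read 36.0 and 24.3 in the Tie-2-Etv2 samples, against 764 in the control. Its difference was -4.69 ± 0.40 (SE; -4.41 on replicate 1 and -4.97 on replicate 2; limma adjusted p = 0.200). Col1a2, the alpha 2 chain, read 128 and 84.5 in the Tie-2-Etv2 samples, against 1438 in the control. Its difference was -3.79 ± 0.41 (SE; -3.49 and -4.09; limma adjusted p = 0.200). Both Tie-2-Etv2 samples lay far below the control for both chains, by more than they differed from each other. Type I collagen is normally assembled from both chains, and the Col1a1 log2 difference minus that of Col1a2 was similar on each array, -0.92 on replicate 1 and -0.88 on replicate 2. The Col1a1 probe lies at chr11:94813115-94813174 (plus strand, build mm9) and the Col1a2 probe at chr6:4490619-4490678 (plus strand).

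Col3a1, which encodes the type III chain that co-assembles into type I fibrils, read 29.4 and 15.5 in the Tie-2-Etv2 samples, against 275 in the control. The difference was -3.69 ± 0.52 (SE; -3.23 and -4.15; limma adjusted p = 0.228), with both Tie-2-Etv2 samples well under the control. Its probe lies at chr1:45405589-45405648 (plus strand, mm9). Col5a1, a type V chain that nucleates type I fibrils, read 15.7 (not well above background) and 15.9 in the Tie-2-Etv2 samples, against 52.4 in the control. Its difference was -1.73 ± 0.32 (SE; limma adjusted p = 0.256), so it stood nearer to the control than the type I and III chains. Col2a1, the cartilage collagen, was well above background on the control alone, at 24.8, against 4.30 and 2.53 in the Tie-2-Etv2 samples. Set against the lowest detected level of each array, it was at least 1.74-fold lower (limma adjusted p = 0.235). Col11a2, a type XI chain, was the exception in the class: it read 48.9 and 35.02 in the Tie-2-Etv2 samples, against 24.9 in the control. Its difference of 0.74 ± 0.38 (SE; 0.98 and 0.49; limma adjusted p = 0.649) was under 2-fold on both arrays. The fibrillar genes well above background on no array were Col5a2, Col5a3, Col11a1, Col24a1 and Col27a1.

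**Figure D2:**
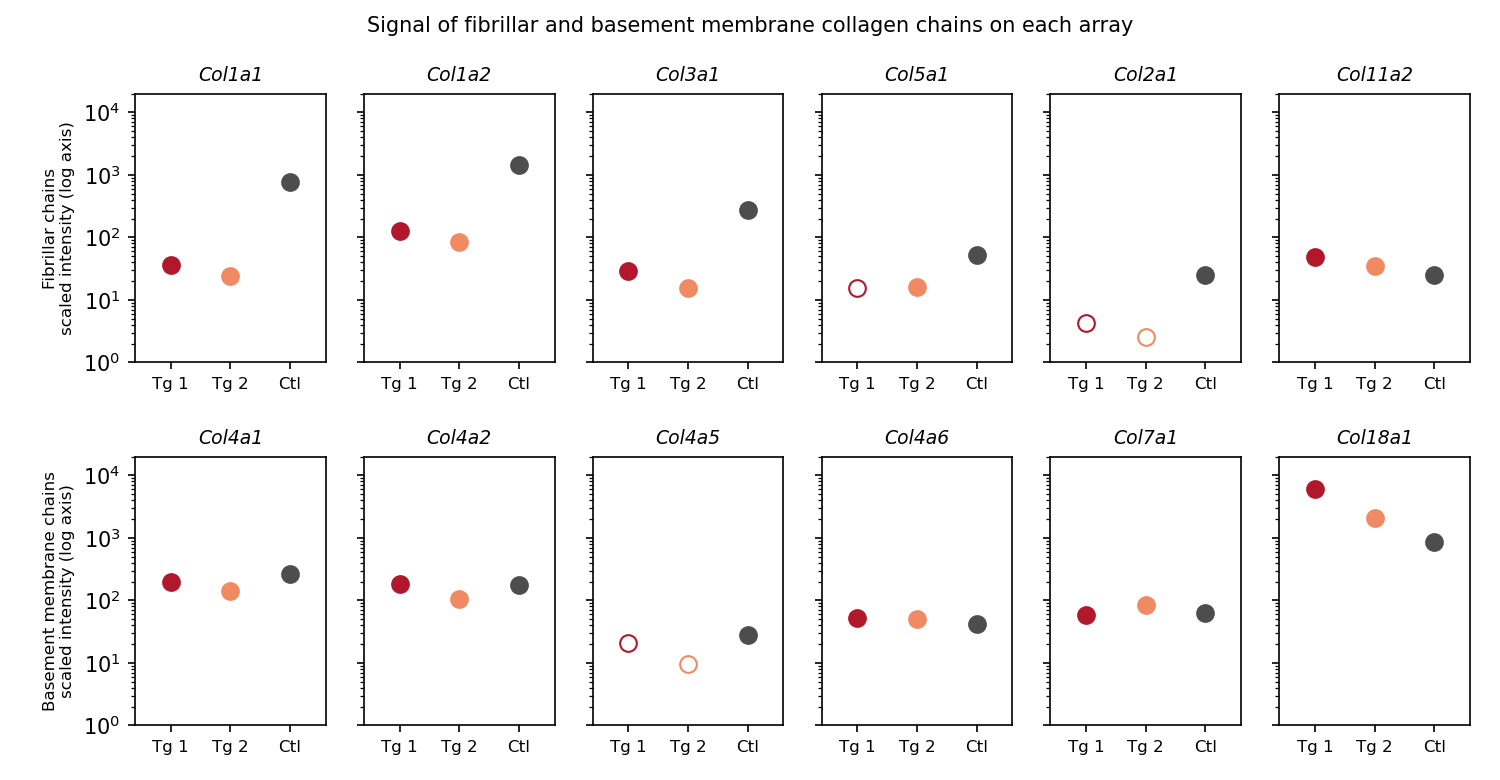
Scaled intensity (log axis) on each array for the 6 tested fibrillar chains (top) and the 6 tested basement membrane chains (bottom), with Tg 1 and Tg 2 the Tie-2-Etv2 replicates and Ctl the control; open points were not well above background. Col1a1, Col1a2 and Col3a1 sit between 15.5 and 128 in the Tie-2-Etv2 samples and between 275 and 1438 in the control, while Col18a1 sits at 6076 and 2066 against 851.

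Promoters of chains that were lower, near the control or higher are shown because Etv2 belongs to the ETS family, whose members bind DNA at a GGAA core. RefSeq promoters of build GRCm38.p6, running from 250 bases before to 50 after each start, were matched by symbol for 33 of the 41 genes. Capitals mark the letters GGAA and, for the other strand, TTCC.
Col1a2, chr6:4505368-4505667, plus strand: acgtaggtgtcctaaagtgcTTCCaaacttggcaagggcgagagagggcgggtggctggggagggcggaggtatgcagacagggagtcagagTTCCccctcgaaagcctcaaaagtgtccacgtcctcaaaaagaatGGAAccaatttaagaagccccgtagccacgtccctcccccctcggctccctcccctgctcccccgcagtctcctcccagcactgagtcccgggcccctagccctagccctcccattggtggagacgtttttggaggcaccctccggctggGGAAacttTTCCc
Col3a1, chr1:45311288-45311587, plus strand: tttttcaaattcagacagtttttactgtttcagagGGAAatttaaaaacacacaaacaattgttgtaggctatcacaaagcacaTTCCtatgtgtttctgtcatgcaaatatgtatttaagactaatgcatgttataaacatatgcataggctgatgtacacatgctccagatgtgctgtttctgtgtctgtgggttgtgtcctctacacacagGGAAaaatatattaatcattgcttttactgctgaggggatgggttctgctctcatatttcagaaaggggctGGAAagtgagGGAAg
Col18a1, chr10:77113656-77113955, minus strand: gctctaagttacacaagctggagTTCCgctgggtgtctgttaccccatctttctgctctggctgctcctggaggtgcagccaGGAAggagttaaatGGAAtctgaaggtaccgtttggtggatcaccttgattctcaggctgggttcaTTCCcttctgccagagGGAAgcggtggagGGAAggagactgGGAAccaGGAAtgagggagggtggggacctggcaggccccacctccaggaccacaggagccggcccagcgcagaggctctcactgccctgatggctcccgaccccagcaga
Col18a1, chr10:77166481-77166780, minus strand: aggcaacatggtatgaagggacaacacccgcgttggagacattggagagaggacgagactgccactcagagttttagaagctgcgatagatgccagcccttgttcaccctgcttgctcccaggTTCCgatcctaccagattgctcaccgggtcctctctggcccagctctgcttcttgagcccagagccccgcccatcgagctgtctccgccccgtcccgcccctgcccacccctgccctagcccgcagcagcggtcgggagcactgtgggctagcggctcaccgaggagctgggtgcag
Col4a1, chr8:11312777-11313076, minus strand: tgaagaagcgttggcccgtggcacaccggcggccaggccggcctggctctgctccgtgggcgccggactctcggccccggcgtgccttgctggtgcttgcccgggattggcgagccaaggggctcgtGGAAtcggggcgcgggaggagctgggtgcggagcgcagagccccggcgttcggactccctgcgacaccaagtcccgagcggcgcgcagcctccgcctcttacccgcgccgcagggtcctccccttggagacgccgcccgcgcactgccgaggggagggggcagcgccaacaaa
Col4a2, chr8:11312555-11312854, plus strand: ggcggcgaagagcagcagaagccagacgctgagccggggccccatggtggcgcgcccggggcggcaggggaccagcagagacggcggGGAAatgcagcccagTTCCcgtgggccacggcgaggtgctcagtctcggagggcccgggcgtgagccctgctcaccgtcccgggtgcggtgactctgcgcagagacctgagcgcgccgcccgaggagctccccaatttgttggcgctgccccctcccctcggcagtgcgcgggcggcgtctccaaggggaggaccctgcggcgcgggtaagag

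Col1a2 and Col3a1, both lower in Tie-2-Etv2 cells, held 5 matches each, and 28.6% of all 32851 promoters held as many or more. Of the 2 Col18a1 promoters, that at 77113656 held 8 matches, reached by 3.72% of all promoters, and the other held 1, reached by 96.0%. Col4a1 and Col4a2, which lie head to head with 78 bases shared between their windows, held 1 and 2 matches. As many or more were held by 96.0% and 84.6% of all promoters. The median was 3 matches over the 36 collagen promoters and 3 over all promoters. Of the 8 collagen genes that were 2-fold lower, 5 had a matched promoter, with 4 to 6 matches each. The share of all promoters with 4 or more was not computed, so this count has no background beside it. These are matches of letters only and say nothing about where a factor sat in these cells.

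Basement membrane chains had no such common direction. Of 9 genes, 6 were tested, 0 were 2-fold lower on both Tie-2-Etv2 arrays and 1 was 2-fold higher. The shares over all genes tested were 6.64% and 3.92%. Their median difference was -0.10, at -0.04 on replicate 1 and -0.24 on replicate 2, and it was 0.15 with normexp background correction. Col4a1 and Col4a2 encode the chains of the type IV network found in most basement membranes. Col4a1 read 199 and 141 in the Tie-2-Etv2 samples, against 263 in the control. The difference was -0.65 ± 0.39 (SE; -0.40 and -0.90; limma adjusted p = 0.710). It was the collagen with the most spots, 10 per array with 1 left out on Tie-2-Etv2 replicate 2, and their coefficients of variation were 8.37% and 6.16% on the Tie-2-Etv2 arrays and 5.69% on the control. Col4a2 read 183 and 106 in the Tie-2-Etv2 samples, against 179 in the control, so the control lay between them. The difference was -0.36 ± 0.47 (SE; 0.03 and -0.76; limma adjusted p = 0.919). Both Tie-2-Etv2 samples lay under the control for Col4a1, replicate 1 by less than the replicates differed from each other, and they lay on either side of it for Col4a2.

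The other type IV chains, restricted to some tissues, read below Col4a1 and Col4a2 on every array, with Col4a5 close to background. Col4a6 read 52.4 and 50.5 in the Tie-2-Etv2 samples, against 41.5 in the control, a difference of 0.31 ± 0.32 (SE; limma adjusted p = 0.889). Its other probe went the opposite way, at 9.84 (not well above background) and 18.8 against 29.2. Col4a5 was well above background on the control alone, at 28.4, against 21.1 and 9.50 in the Tie-2-Etv2 samples. It was at least 1.85-fold lower on average, with bounds of 1.35-fold on replicate 1 and 2.55-fold on replicate 2 (limma adjusted p = 0.708). Col7a1, which forms the anchoring fibrils under epithelia, read 58.5 and 85.3 in the Tie-2-Etv2 samples, against 63.3 in the control, a difference of 0.16 ± 0.40 (SE; limma adjusted p = 0.958). Col4a3, Col4a4 and Col15a1 were well above background on no array.

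Col18a1 was the collagen gene counted as 2-fold higher on both Tie-2-Etv2 arrays, a count that becomes 2, with Col25a1, when all tested probes of a gene are averaged. It read 6076 and 2066 in the Tie-2-Etv2 samples, against 851 in the control. The difference was 2.06 ± 0.75 (SE; 2.84 on replicate 1 and 1.28 on replicate 2; limma adjusted p = 0.484). Both Tie-2-Etv2 samples lay above the control, but the gap between them was more than 2-fold. A second Col18a1 probe gave 4896 and 1846 against 704, a difference of 2.10 ± 0.69 (SE; limma adjusted p = 0.440). The probes lie at chr10:76514926-76514985 and chr10:76515790-76515849 (minus strand, mm9), and both are listed against both Col18a1 transcripts that the array annotates, so the arrays do not tell these transcripts apart.

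Fibril-associated chains sit on the surface of fibrils or link them to other matrix, and 4 of 9 were tested. Of the 4, 3 were 2-fold lower on both Tie-2-Etv2 arrays by their values, against 6.64% of all genes tested. All 3 entered the test through the control and were dim on at least 1 Tie-2-Etv2 array. The bound of Col14a1 was 1.997-fold on replicate 1 and 3.28-fold on replicate 2. Col14a1, which binds type I fibrils, was well above background on the control alone, at 36.4, against 4.31 and 2.47 in the Tie-2-Etv2 samples, and was at least 2.56-fold lower (limma adjusted p = 0.228). Its other probe was above background on no array. Col9a2, a type IX chain best known from cartilage, read 12.4 and 10.2 in the Tie-2-Etv2 samples, neither well above background, against 54.5 in the control, and was at least 3.83-fold lower (limma adjusted p = 0.235). Col16a1 read 14.5 (not well above background) and 26.4 in the Tie-2-Etv2 samples, against 73.1 in the control, a difference of -1.90 ± 0.49 (SE; limma adjusted p = 0.345). The dim values place both Tie-2-Etv2 samples below the control for all of these genes without fixing by how much.

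Col9a1, the partner chain of Col9a2, gave opposite directions on its 2 probes. The brighter probe read 29.6 and 19.9 in the Tie-2-Etv2 samples, against 13.1 (not well above background) in the control, and was at least 1.75-fold higher (limma adjusted p = 0.593). The other read 4.08 and 2.46, neither well above background, against 15.4, which lies under the lowest detected level of replicate 1. No direction is therefore given for this gene. Col20a1 was well above background only on Tie-2-Etv2 replicate 2, where it read 16.6, with 22.4 on replicate 1 and 8.03 on the control, and it was not tested.

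Among the transmembrane collagens, Col25a1, whose product is known from neurons and from amyloid plaques, was detected in the Tie-2-Etv2 samples and not in the control. The probe that stands for the gene, by the highest mean of both group means, is printed because its letters carry the collagen repeat. The letters are the array's own probe sequence, which its annotation places at chr3:130270497-130270556, plus strand, build mm9. Capitals mark 6 triplets of the form GGN, the code for glycine, spaced every 9 bases as in the glycine repeat of a triple helix.
Col25a1 probe: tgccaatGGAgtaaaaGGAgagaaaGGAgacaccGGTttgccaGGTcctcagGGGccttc

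That probe read 89.1 and 20.1 in the Tie-2-Etv2 samples, against 13.1 (not well above background) in the control. It was at least 3.06-fold higher on average, with bounds of 6.46-fold on replicate 1 and 1.45-fold on replicate 2 (limma adjusted p = 0.704). A second probe read 98.7 and 21.2 against 3.64, at least 3.31-fold higher on average (limma adjusted p = 0.365). Its bounds were 7.14-fold on replicate 1 and 1.53-fold on replicate 2. Another read 176 and 65.0 against 4.76, at least 7.74-fold higher (limma adjusted p = 0.235), and the remaining probe was above background on no array. All 3 detected probes were brighter on replicate 1 than on replicate 2. Per array, the bound of the last of these was 12.8-fold on replicate 1 and 4.70-fold on replicate 2, so the choice of probe decides whether Col25a1 counts as 2-fold higher on both. Col23a1 read 25.9 and 23.5 in the Tie-2-Etv2 samples, against 24.0 in the control, a difference of 0.04 ± 0.33 (SE; limma adjusted p = 0.988) whose sign turned with spike-in scaling. Col17a1, a collagen of epithelial hemidesmosomes, was well above background on replicate 1 alone, at 57.3, with 6.77 on replicate 2 and 3.31 on the control, and was not tested.

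**Figure D3:**
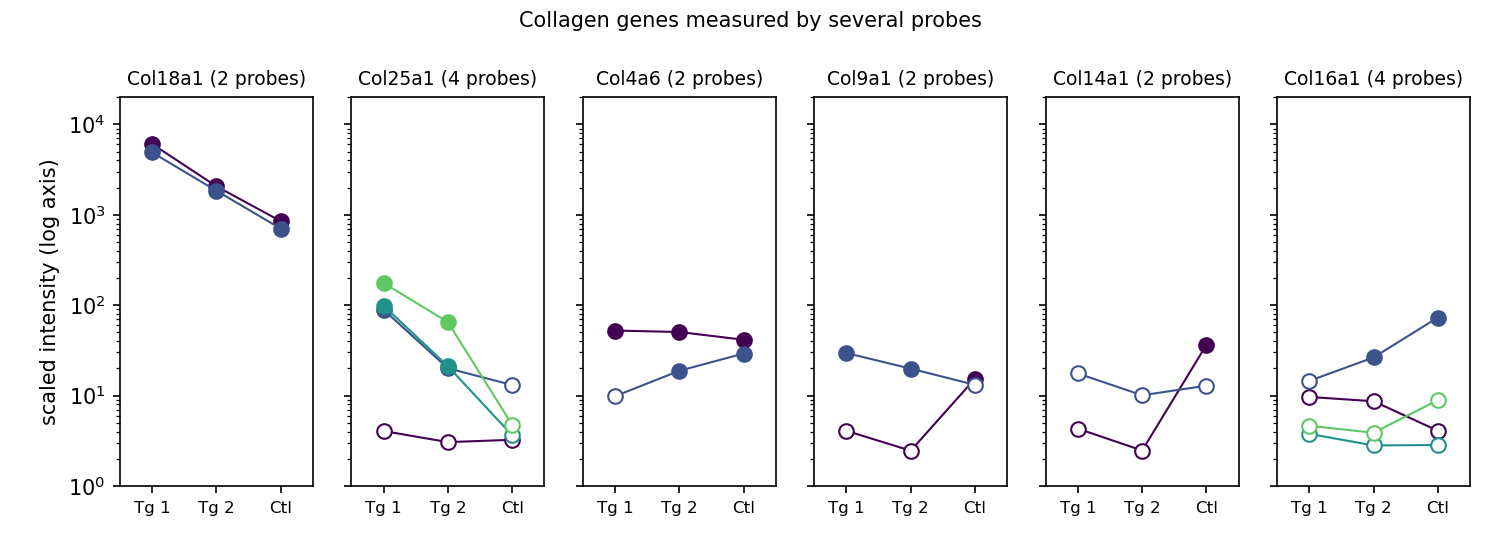
Scaled intensity (log axis) of every probe of 6 collagen genes on Tie-2-Etv2 replicates 1 and 2 (Tg 1, Tg 2) and the control (Ctl), with 1 line per probe and open points where a probe was not well above background. The 2 probes of Col18a1 and the 3 detected probes of Col25a1 run the same way, whereas the probes of Col9a1 run in opposite directions, as do those of Col4a6.

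Type VI collagen, which forms beaded microfilaments around cells, was barely seen. Col6a2 was well above background only on Tie-2-Etv2 replicate 2, at 15.5, with 8.98 on replicate 1 and 5.001 on the control. Of the genes chosen by name, those of the other type VI chains, of the short-chain collagens of types VIII and X, and of the remaining fibril-associated and transmembrane collagens were above background on no array. A probe annotated as type VI, alpha 3, but without a gene name of the collagen form, read 4.43 and 2.602 in the Tie-2-Etv2 samples, neither well above background, against 18.7 in the control. In all, 20 of the 41 genes with 29 probes were above background nowhere. Their highest scaled intensity was 13.9, and their median was 4.47 and 2.63 on the Tie-2-Etv2 arrays and 3.24 on the control. By probe, 5 of 63 collagen probes were well above background on the control alone, against 1.52% of all probes, and 4 were so on both Tie-2-Etv2 arrays and not the control, against 1.36%. Of these 4 probes, 3 belong to Col25a1 and the last to Col9a1, whose other probe is among the 5.

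Most enzymes and chaperones that make collagen were near or below the control. Of 19 genes of collagen biosynthesis, 17 were tested, 4 were 2-fold lower on both Tie-2-Etv2 arrays and 0 were higher, with a median difference of -0.56. Over all genes tested, 6.64% were 2-fold lower and 3.92% were 2-fold higher on both arrays. Serpinh1, the collagen chaperone HSP47, read 229 and 253 in the Tie-2-Etv2 samples, against 2245 in the control, a difference of -3.22 ± 0.33 (SE; limma adjusted p = 0.200). The prolyl 4-hydroxylase subunits P4ha2 and P4ha1 differed by -2.75 ± 0.53 and -1.31 ± 0.35, and Fkbp14, a prolyl isomerase, by -1.36 ± 0.37 (SE; limma adjusted p = 0.262, 0.349 and 0.358). Of the genes that were not 2-fold lower on both arrays, named after their values were seen, the lysyl hydroxylase Plod1 had the most negative difference, -1.49 (-2.05 and -0.93), and Plod2 the most positive, 0.76. Plod2 lay above the control on both arrays, by 1.12 on replicate 1 and 0.40 on replicate 2.

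Of 12 genes that trim procollagen or cross-link fibrils, 5 were tested. Of these, 2 were 2-fold lower on both Tie-2-Etv2 arrays, against 6.64% of all genes tested. Pcolce, which enhances cleavage of the C-terminal propeptide of fibrillar procollagens, read 37.6 and 36.3 in the Tie-2-Etv2 samples, against 170 in the control (-2.20 ± 0.32, SE; limma adjusted p = 0.235). Loxl3, a lysyl oxidase, was detected on the control alone and was at least 1.97-fold lower. The list's median was -0.17. Of 10 matrix proteins that bind fibrils, 7 were tested, 2 were 2-fold lower on both arrays and 1 was higher, with a median of -0.45. The shares over all genes were 6.64% lower and 3.92% higher. The small leucine-rich proteoglycans Lum and Dcn were detected on the control alone. Lum read 15.6 and 2.42 in the Tie-2-Etv2 samples, against 214 in the control, and was at least 15.1-fold lower. Dcn read 5.22 and 3.84 against 66.0, and was at least 4.64-fold lower. Sparc, a collagen-binding protein that endothelium also makes, read 39171 and 12303 in the Tie-2-Etv2 samples, against 5467 in the control (2.01 ± 0.80, SE; limma adjusted p = 0.523).

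Laminins and other partners of the basement membrane went in both directions. Of 16 genes, 13 were tested, 4 were 2-fold lower on both Tie-2-Etv2 arrays and 1 was higher, with a median of -0.50. Over all genes tested these shares were 6.64% and 3.92%, so 1 higher gene is near the share. Lama4, the laminin chain of endothelial basement membranes, was the higher one, at 126 and 79.2 in the Tie-2-Etv2 samples, against 32.5 in the control (1.62 ± 0.43, SE; limma adjusted p = 0.351). Lama1, a chain of early embryonic and endodermal basement membranes, read 4.43 (not well above background) and 63.3 against 170. Lama5, a chain widespread in epithelium and endothelium, read 88.1 and 157 against 346 (-1.56 ± 0.49, SE; limma adjusted p = 0.410). The nidogen gene Nid1 and the perlecan gene Hspg2, named after their values were seen, were 2.43 and 2.20 above the control on replicate 1 and 0.95 and 0.83 above it on replicate 2. Of 10 collagen receptors, 6 were tested, 1 was 2-fold lower on both arrays and 1 higher, with a median of -0.99, or -0.53 with bounds. With 6 genes, 1 either way says little beside the shares of 6.64% and 3.92% over all genes. Itga2, the alpha subunit of a collagen-binding integrin, read 143 and 32.4 in the Tie-2-Etv2 samples, against 4.07 (not well above background) in the control, and was at least 4.93-fold higher. Gp6, the platelet collagen receptor, was detected on the control alone and was at least 1.91-fold lower.

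Markers of other cell types that a yolk sac sort could hold also differed between the samples. For comparison, 6.64% of all genes tested were 2-fold lower and 3.92% were 2-fold higher on both Tie-2-Etv2 arrays. Of 16 mesenchyme markers, 6 were tested, and 10 were above background on no array, Pdgfra, Twist2, Prrx1, Dpt and Tcf21 among them. The summed scaled intensity of the list was 388 and 295 in the Tie-2-Etv2 samples and 425 in the control. The list's median difference was 0.50, or 0.32 with bounds. Only Acta2, smooth muscle actin, was 2-fold lower on both arrays, at 53.8 and 51.2 against 164, while Tagln differed by -1.06 ± 0.39 and Pdgfrb by -0.05 ± 0.45. Fap had a positive difference of 1.05 ± 0.33, and Twist1 and Thy1, not well above background on the control, were at least 1.61-fold and 3.56-fold higher, with Thy1 at 113 on replicate 1, 21.4 on replicate 2 and 11.6 on the control. Of 16 visceral endoderm markers, 14 were tested and 13 were 2-fold lower on both arrays, with sums of 14367 and 38488 against 85235. All 11 tested macrophage markers of 12 were 2-fold lower on both arrays, with sums of 10113 and 34541 against 151183. Of 10 erythroid markers, 9 were tested and 7 were 2-fold lower. Of 14 endothelial markers, all were tested and 10 were 2-fold higher, with sums of 110474 and 53734 against 22522. All 8 megakaryocyte markers were tested, with 4 of them 2-fold higher and 2 of them 2-fold lower. No marker passed limma's test.

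The size of the differences varied between the Tie-2-Etv2 replicates. Macrophage markers had median differences of -5.28 on replicate 1 and -3.02 on replicate 2, visceral endoderm markers of -4.10 and -1.22, and endothelial markers of 2.87 and 1.34. Replicate 1 stood at the larger distance from the control in 67.2% of all genes tested, in 10 of 11 macrophage, 12 of 14 visceral endoderm and 14 of 14 endothelial markers, and in 2 of 6 fibrillar chains. Col1a1, Col1a2 and Col3a1 were each further from the control on replicate 2. The lowest detected intensity was higher on replicate 1, at 18.2 against 11.1 on replicate 2. Col1a1 (36.0 and 24.3) and Col3a1 (29.4 and 15.5) read not far above these levels. Whether this affects the order of the replicates was not tested. Among basement membrane chains, 2 of 6 were further from the control on replicate 1, Col18a1 being 1 of them. So were 7 of 13 basement membrane partners, Nid1 and Hspg2 among them, and 4 of 7 fibril-binding partners, Sparc among them. The part of each cell type in the collagen differences was not tested.

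**Figure D4:**
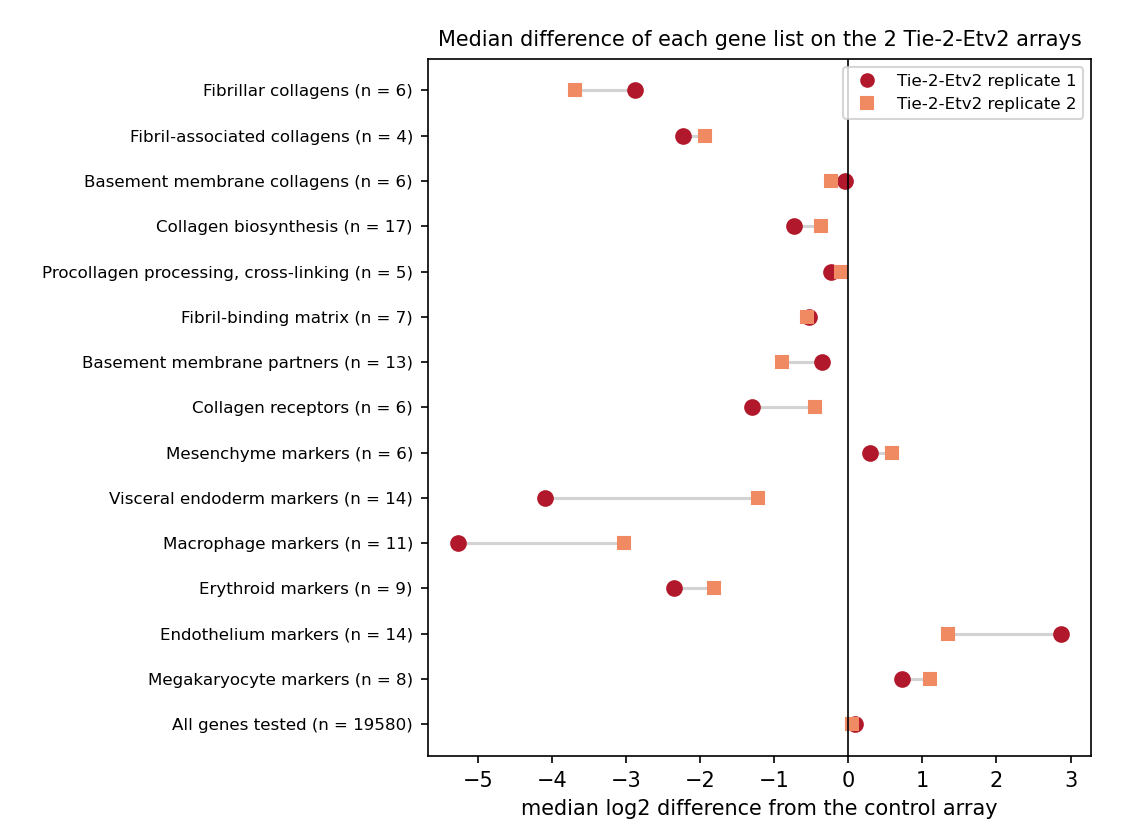
Median log2 difference from the control array (horizontal axis) of each gene list on Tie-2-Etv2 replicate 1 (circles) and replicate 2 (squares), with n the number of tested genes. Fibrillar collagens sit at -2.88 and -3.69, basement membrane collagens at -0.04 and -0.24, macrophage markers at -5.28 and -3.02 and endothelial markers at 2.87 and 1.34.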

How the data were processed

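Per the file headers, spot intensity values came from Agilent Feature Extraction (version 10.7 in the submitters' processing notes), which subtracted background; they were deposited unscaled. A log2 table, its scale and centring unstated, was deposited too. Compared with the log2 intensities, its array-to-array differences were equal within 0.01 for 100% of 55668 probes after adding constants of 0.756 and -0.0161 for Tie-2-Etv2 replicates 1 and 2, which settles direction and log base. Its column medians were 0.136, 0 and 0 for Tie-2-Etv2 replicate 1, replicate 2 and the control, and whether its rows were centred was not tested.

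Control spots and outlier spots (168 to 174 per array) were dropped, and 0 spots were saturated. Spots of a probe were averaged as log2 intensity, and each array was scaled by its 75th percentile over 22764 probes detected on every array. The test covered 26214 probes of 19580 genes, and a gene stands for the tested probe whose log2 group means, averaged, are highest. It was limma's lmFit and eBayes (version 3.58.1, R 4.3.3), two-sided, with Benjamini-Hochberg adjustment over all probes. Only the Tie-2-Etv2 replicates gave a residual degree of freedom (1, or 3.92 after moderation), and the lone control is assumed to vary as they do. The script was tested on simulated data.

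Names were updated through RefSeq by accession (26575 probes), symbol (2602) or synonym (492), and 25999 probes kept the file's name. Where a gene was well above background in 1 group only, "at least" gives a bound: the bright mean against each dim array's own value or its lowest detected value, whichever is higher. Bounds hold for this processing only. The number of arrays limits the precision.

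All of the 41 collagen genes that were above background on any array are named. Of each partner list the rule named up to 4 genes, those 2-fold apart in the same direction on both Tie-2-Etv2 arrays with the largest value of the smaller difference. Of the genes it named, 1 is not reported here. Members and lists were chosen with earlier results of these data known.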

Additional observations from a re-analysis of the deposited data

Results flagged for a closer look

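A probe annotated as collagen, type XXII, alpha 1, but carrying no gene name of the collagen form, was not part of the comparison. It was well above background on Tie-2-Etv2 replicate 1, at a scaled intensity of 23.1, and on no other array, with 10.4 on replicate 2 and 4.78 on the control. A probe annotated as collagen, type VI, alpha 3, also outside the name rule, was well above background on the control alone, with 4.43 and 2.602 in the Tie-2-Etv2 samples, against 18.7 in the control. No group had the 4 samples that a check for outlying samples needs.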

How the results depend on the processing

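The counts, class medians and differences of the 18 tested collagen genes were recomputed under 11 alternatives, except that leaving out a replicate allows no test and that 8 genes drop out when a probe must be detected on all 3 arrays. Partner and marker genes were not recomputed. Where a test was possible, no collagen gene passed limma's test except with normexp background correction, where 4 did (Col1a1, Col1a2, Col3a1 and Col18a1, and 609 of all genes), and with no filter on dim probes, where 4 did (Col1a1, Col1a2, Col2a1 and Col3a1, and 440 of all genes). With normexp the prior degrees of freedom were infinite, so all probes were given the same variance and a gene's own replicate spread did not enter. With no filter the prior degrees of freedom were 20.1, against 2.92 as reported. The count of genes 2-fold lower on both arrays, 8 as reported, was 6 with dim values set to the lowest detected level. It was 3 with normexp and 3 with only probes well above background on all 3 arrays. The count 2-fold higher, 1 as reported, was 3 with no filter, 2 with the mean of all probes of a gene, and 1 to 3 leaving out each Tie-2-Etv2 replicate in turn. The fibrillar median of -3.30 was -1.03 with normexp, -1.81 with no filter and -2.66 with dim values set to the lowest detected level, and -3.69 to -2.88 leaving out each replicate. The basement membrane median of -0.10 was 0.15 with normexp, 0.16 with no filter, 0.16 with probes detected on all 3 arrays and -0.38 with the mean of probes, and -0.24 to -0.04 leaving out each replicate, so its sign is not settled. Of 190 values for named collagen genes, 9 reversed. Col23a1 was -0.046 with quantile normalization, -0.094 with spike-in scaling and -0.029 to 0.11 leaving out each replicate. Col4a2 was -0.76 to 0.032 and Col7a1 -0.11 to 0.43 leaving out each replicate. Col4a5 was 0.039 with normexp, Col14a1 0.049 with no filter (its undetected probe was then the brighter), and Col4a6 -0.39 and Col9a1 -0.70 with the mean of probes. Otherwise the cause was not tested. Spike-in scaling put the median of all genes at -0.07, against 0.07 as reported. The control cannot be left out, as it is the only one. No paired analysis was possible because the groups share fewer than 2 replicate numbers. Intensities near the lowest detected level carry no order.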
